A study of Mus musculus with 38 samples.

Results

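The sulfotransferase (Sult), UDP-glucuronosyltransferase (Ugt) and glutathione S-transferase (Gst) genes were followed in mouse liver across feeding regimes and times. Members were all genes whose symbol starts with Sult or Ugt and a number, or with Gst, a class letter (a, k, m, o, p, t or z) and a number. These were 65 of the 21954 genes in the count table, of which 21 were Sult, 22 Ugt and 22 Gst genes. RNA sequencing was done on 38 liver libraries from wild-type female C57BL/6 mice in 13 groups, and no other allele or agent is labelled. Ad libitum libraries were taken at 0 h (n = 3), 6 h (n = 2), 14 h (n = 3) and 22 h (n = 3). Calorie restriction libraries were taken at the same hours (n = 2, 3, 3 and 4), and fasted libraries at 6, 14 and 22 h (n = 3 each). A further pair of groups under calorie restriction was taken at ZT18, either fed (n = 3) or after a missed meal (n = 3). The event at which the hours start is not labelled, and neither is whether replicates are separate animals, so p-values measure the spread between these libraries only. Labelled ages ran from 5 to 44 months and no 2 groups shared an age: for example, the ad libitum livers at 14 h are labelled 20 to 22 months and the fasted ones 26 to 28 months. The labelled age differs for every library and mostly rises by 1 month from one library to the next, so whether it is the animals' true age is uncertain. As labelled, the groups differ in age as well as in diet and hour, and these cannot be told apart.

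Conjugating enzymes attach a polar group to drugs, hormones, bilirubin and bile acids so that they dissolve in water and can be exported into bile or urine. Sulfotransferases take sulfate from PAPS, UDP-glucuronosyltransferases take a sugar from a UDP-sugar, and glutathione S-transferases join glutathione to electrophiles. Liver holds all of them, and the nuclear receptors CAR and PXR, the aryl hydrocarbon receptor AHR and the stress-response factor NRF2 are known to control many of these genes. Neighbouring genes of a family lie in clusters. In GRCm38, 7 Gstm genes span chromosome 3 (107895821 to 108044894), the Ugt1a genes chromosome 1 (88055388 to 88220002) and the Ugt2 genes chromosome 5 (86889767 to 87490871), while Gsta3 stands on chromosome 1 (21240589 to 21265661) apart from Gsta1, Gsta2 and Gsta4 on chromosome 9.

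The promoters of Gsta3 and Sult2a3 are shown because these genes gave the lowest adjusted p-value and the largest fold change among members between fasted and ad libitum livers at 14 h. Both are the 250 bases before the start site from RefSeq (GRCm38.p6), at chr1:21240335-21240584 on the plus strand and chr7:14123049-14123298 on the minus strand. Capitals mark the core of an antioxidant response element, the element that NRF2 binds.
Gsta3: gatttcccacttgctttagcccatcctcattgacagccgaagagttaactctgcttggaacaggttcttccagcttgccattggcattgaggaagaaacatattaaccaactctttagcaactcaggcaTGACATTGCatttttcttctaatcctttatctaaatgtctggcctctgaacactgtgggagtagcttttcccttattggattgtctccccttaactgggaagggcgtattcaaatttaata
Sult2a3: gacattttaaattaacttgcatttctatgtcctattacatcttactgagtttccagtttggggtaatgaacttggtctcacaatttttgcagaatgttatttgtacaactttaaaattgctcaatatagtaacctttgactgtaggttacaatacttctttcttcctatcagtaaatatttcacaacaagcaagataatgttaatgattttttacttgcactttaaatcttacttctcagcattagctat
The core, searched as TGACNNNGC on both strands, starts 121 bases before the start site of Gsta3 and was not found in the Sult2a3 window. It occurred in 3 of the 57 members with a promoter sequence (Gsta3, Gstm5 and Gstm7), against 10.2% of all 32851 promoters. The D-box letters TTANGTAA, a clock element, occurred in Sult1a1, Ugt1a9 and Ugt2b1, against 2.06% of all promoters, and the E-box letters CACGTG in 0 members, against 6.02%. A match is a description of these letters and no evidence of binding.

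Libraries held 17131292 to 30152277 counts. By the 2000 most variable genes, with the members left out, 5 of 38 libraries were closest to a group on another diet: ad libitum library 3 at 0 h, calorie restriction library 3 at 6, at 14 and at 22 h, and fed library 3. By 14 clock genes, ad libitum libraries 2 and 3 at 0 h and library 2 at 22 h were closest to another hour, out of 32 libraries with an hour. Hepatocyte markers summed to a scaled count (CPM) of 73394 to 170801, with none at 0. Markers of Kupffer cells reached at most 392 CPM, of endothelium 256, of stellate cells 416, of cholangiocytes 84.6 and of lymphocytes 7.5. Markers of other tissues reached at most 20.8 CPM for pancreas acinar cells and 159 CPM for kidney and gut. Adipocyte markers reached 21.2 CPM, in the fed group under calorie restriction. In whole tissue, fewer cells of a type and less RNA per cell cannot be told apart.

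Per transcript length, Gst RNA was the most abundant of the families. Levels per length come from the deposited signal, which is a rescaled TPM value, a read count corrected for transcript length and library size. Gsta3, the alpha-class enzyme that detoxifies aflatoxin epoxide in mice, made up 28.3% of the mean summed Gst signal, the mu-class Gstm1 27.5%, the pi-class Gstp1 10.2% and Gstz1, the isomerase of tyrosine breakdown, 9.11%. Of the Sult signal, the hydroxysteroid sulfotransferase Sult2a2 made up 26.1%, the phenol sulfotransferase Sult1a1 21.8%, Sult2a1 21.4% and the bile acid sulfotransferase Sult2a8 14.2%. Of the Ugt signal, the bilirubin enzyme Ugt1a1 made up 23.4%, Ugt2b5 16.3% and Ugt2b36 14.8%.

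The summed Gst signal was lowest in fasted livers. It was 6915 ± 1590 (SD, n = 3) in ad libitum and 3354 ± 131 (SD, n = 3) in fasted livers at 14 h, and 6614 ± 697 (SD, n = 3) against 3559 ± 487 (SD, n = 3) at 22 h. The lowest ad libitum library at these hours stood at 5082 and the highest fasted library at 4112, so these groups did not overlap. Under calorie restriction at 22 h the sum was 9293 ± 2700 (SD, n = 4), and the 4 libraries, from 6332 to 12395, overlapped the ad libitum range of 6047 to 7392. The summed Sult signal ran from 1502 ± 411 (SD, n = 3) in fasted livers at 14 h to 4398 ± 899 (SD, n = 4) under calorie restriction at 22 h. Fasted livers at 22 h stood at 3298 ± 332 (SD, n = 3), from 2948 to 3609, above the ad libitum libraries of that hour at 1781 to 2763, so the summed Sult signal was not low in fasted livers at 22 h. The summed Ugt signal had group means from 2640 to 3368.

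**Figure D1:**
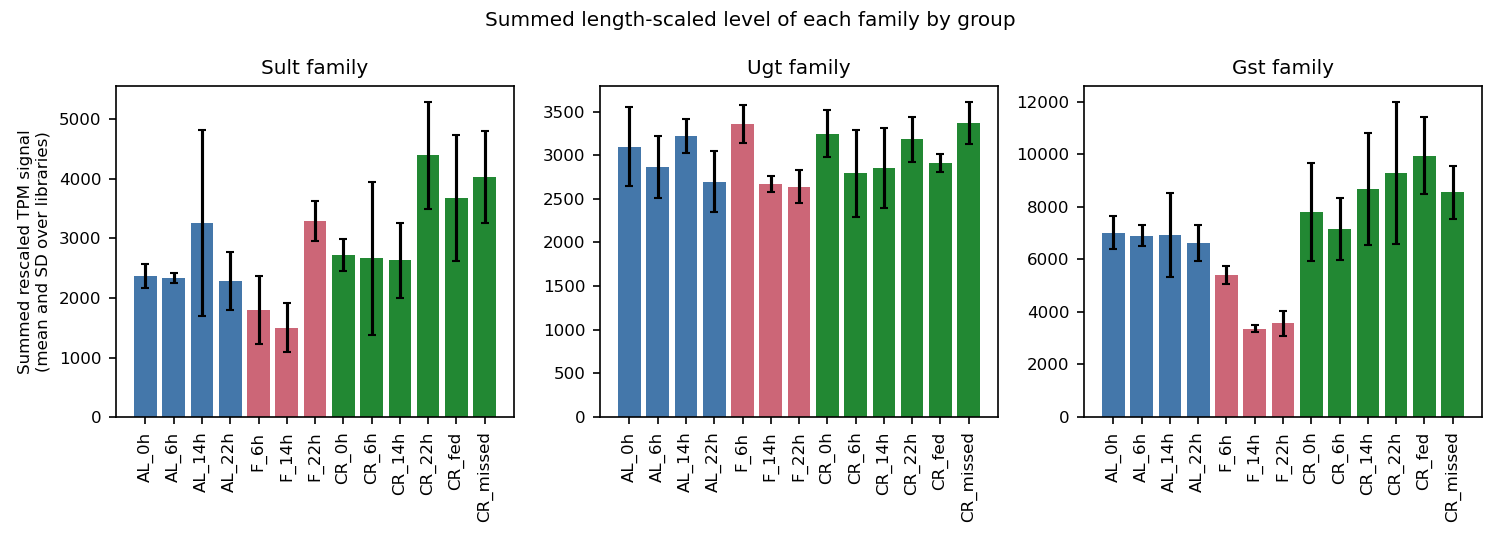
Summed length-scaled signal (rescaled TPM, linear axis) of the Sult, Ugt and Gst genes in each of the 13 diet and time groups; bars are group means and error bars 1 SD over 2 to 4 libraries. The Gst bars of the fasted groups at 14 h (3354) and 22 h (3559) are the lowest of that family, and group means of the Ugt sums stay between 2640 and 3368.

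Counts of 52 members (15 Sult, 17 Ugt and 20 Gst) were high enough to test. The other 13 were Sult1c1, Sult2a6, Sult2b1, Sult4a1, Sult6b1, Sult6b2, Ugt1a2, Ugt1a8, Ugt2a1, Ugt2a2, Ugt8a, Gsto2 and Gstt4, whose summed counts over all 38 libraries ran from 0 to 137. All tests below are edgeR quasi-likelihood tests with Benjamini-Hochberg adjustment over the 13786 genes tested, called at an adjusted p under 0.05. Across the 13 groups, 36 of 52 members differed (10 Sult, 10 Ugt and 16 Gst), against 52.8% of all genes. The comparisons at each hour share libraries: at 6, 14 and 22 h each fasted, ad libitum and calorie restriction group enters 2 of them.

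**Figure D2:**
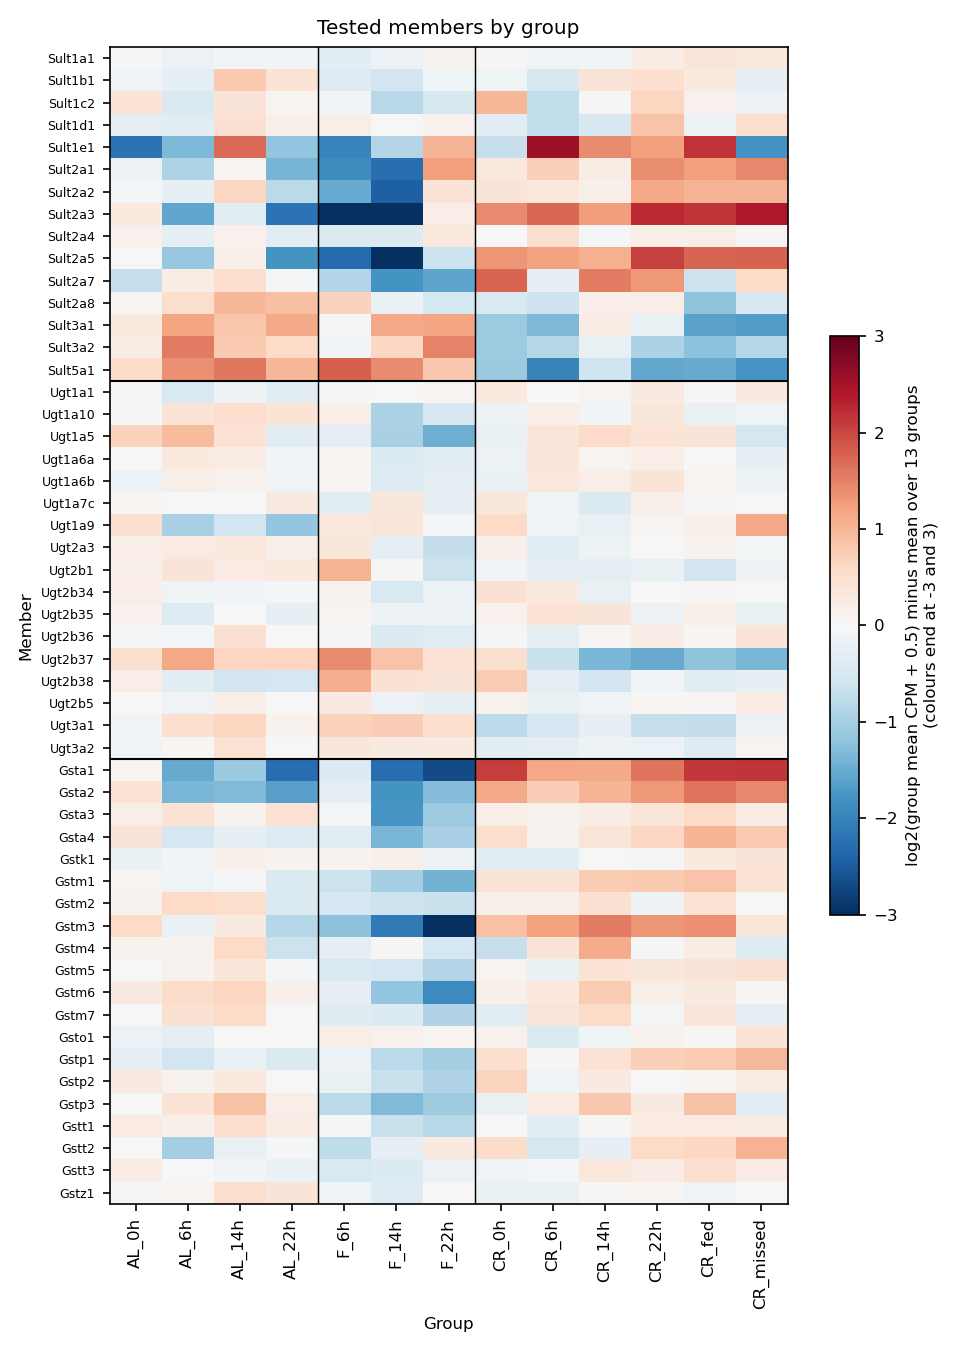
Log2(group mean CPM + 0.5) of the 52 tested members in the 13 groups, each gene centred on its mean over the groups. Colour gives the difference from that mean in log2 units. Gsta3, Gstm3, Gstm6 and Gstt1 are low in the fasted columns at 14 and 22 h, and Sult5a1 is low in the 6 columns under calorie restriction.

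Most members called between fasted and ad libitum livers were lower after fasting, and the largest group of them were Gst genes. Between fasted and ad libitum livers at 14 h, 22 of 52 members were called, against 24.5% of all genes. Of these 21 were lower, against 12.7% of all genes: 11 of 20 Gst, 5 of 15 Sult and 5 of 17 Ugt genes, with 1 Ugt gene higher, against 11.8% of all genes. The median log2 fold change was -0.98 for Gst, -1.40 for Sult and -0.21 for Ugt genes, and -0.04 over all genes tested. Without ad libitum library 1 or 3 the count was 12, without fasted library 2 it was 14 and without fasted library 3 it was 13. At 22 h, 9 members were called, all lower (11.5% of all genes called, 5.4% lower), of which 7 were Gst and 2 Ugt genes. Without fasted library 1 the count at 22 h was 4. The median at 22 h was -0.73 for Gst, 0.19 for Sult and -0.22 for Ugt genes and -0.03 over all genes. edgeR called 0 Sult genes at 22 h, and 4 of 15 had an unadjusted p under 0.05. At 22 h 18 members had an unadjusted p under 0.05, and DESeq2 called 12, 1 of them higher. At 6 h, 1 member was called, a higher one, against 2.34% of all genes called and 1.2% higher, 11 had an unadjusted p under 0.05 and DESeq2 called 2.

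Among the Gst genes, Gsta3 gave the smallest adjusted p. It stood at 1579, 829 and 1980 CPM in the ad libitum livers at 14 h and at 397, 427 and 377 CPM in the fasted livers. At 22 h it stood at 1718, 2096 and 1720 CPM against 591, 569 and 746 CPM. Every fasted library at these hours lay below every ad libitum library, while the fasted libraries at 6 h, at 1252, 1360 and 1360 CPM, were not called against the ad libitum libraries at 1673 and 1985 CPM. The log2 fold change was -1.87 ± 0.23 (SE) at 14 h (edgeR adjusted p = 4.21e-06) and -1.54 ± 0.23 at 22 h (adjusted p = 9.55e-05). Both calls held without any 1 library. The theta-class Gstt1 followed, from a mean of 373 to 165 CPM at 14 h (log2 fold change -1.17 ± 0.19, edgeR adjusted p = 9.71e-05) and from 305 to 147 CPM at 22 h (-1.05 ± 0.19, adjusted p = 0.000878), with no overlap between the groups at either hour.

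Mu-class genes of the chromosome 3 cluster fell as well. Gstm3 stood at 89.8, 23.3 and 64.7 CPM in ad libitum livers at 14 h and at 9.66, 10.9 and 12.3 CPM in fasted livers. At 22 h it stood at 18.8, 46.1 and 14.9 CPM against 2.78, 8.71 and 3.82 CPM. The fasted libraries lay below all ad libitum libraries at both hours, by -2.43 ± 0.58 on the log2 scale at 14 h (edgeR adjusted p = 0.00321) and -2.39 ± 0.59 at 22 h (adjusted p = 0.00862). The call at 22 h was lost without ad libitum library 2 (-1.73, adjusted p = 0.0655) or fasted library 1 (-2.1, adjusted p = 0.0683). Gstm6 fell from 104 to 29.4 CPM at 14 h (-1.83 ± 0.33, edgeR adjusted p = 0.000269) and from 74.1 to 17.2 CPM at 22 h (-2.11 ± 0.34, adjusted p = 0.000258), and held without any 1 library. The other members called lower at 14 h were Gstm1 (-0.96), Gstm2 (-1.15), Gstm5 (-0.94), Gstm7 (-1.0), Gsta4, which conjugates the lipid peroxidation product 4-hydroxynonenal (-1.11), Gstz1 (-0.88) and the pi-class Gstp3 (-2.33 ± 0.44, edgeR adjusted p = 0.00043). The Gstm2 call was lost in 5 of 6 fits that left out 1 library (ad libitum 1 or 3, or any fasted library), with adjusted p up to 0.131. Gstm4 was not called at either hour, so 6 of the 7 mu genes were lower at 14 h. At 22 h Gstm5 (-0.87), Gstm7 (-0.92) and Gstp3 (-1.36) were lower too. Gstm7 was lost there without ad libitum library 2 (adjusted p = 0.0554) or fasted library 1 (adjusted p = 0.0584), and Gstp3 in 5 of 6 such fits, with adjusted p up to 0.148.

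Short transcripts were lower in fasted livers as a whole. Spearman's rho between fold change and transcript length over all tested genes was 0.453 at 14 h and 0.412 at 22 h, and the median length of the tested Gst members lay at the 9.75th percentile of genes, of Sult members at the 8.93rd and of Ugt members at the 39.8th. With that trend removed, 14 members were called at 14 h, against 15% of all genes, and 7 at 22 h, against 7.61%. Of the Gst genes 5 stayed lower at 14 h: Gsta3 (-1.29), Gstm3 (-1.92), Gstm6 (-1.21), Gstp3 (-1.4) and Gstt1 (-0.52). The mitochondrial and peroxisomal Gstk1 (0.76) and the omega-class Gsto1 (0.66) were then called higher. Of the 5 Sult genes called at 14 h, 2 kept the call, Sult1b1 (-1.01) and Sult2a5 (-3.28), while Sult2a2 (-2.08, adjusted p = 0.173), Sult2a3 (-4.13, adjusted p = 0.062) and Sult1c2 (-1.11, adjusted p = 0.064) lost it. At 22 h Gsta3 (-1.17), Gstm3 (-2.05), Gstm6 (-1.74) and Gstt1 (-0.61) stayed lower. Fasted livers at 14 h also differed in cell type markers: 6 of 7 endothelial genes were higher, against 11.8% of all genes, with a summed level of 212 to 256 CPM against 57.3 to 140 CPM in ad libitum livers, and hepatocyte markers summed to 95426 to 116964 CPM against 134626 to 142170 CPM, with 3 of 10 genes higher and 2 lower. Of 5 pancreas acinar genes 2 were higher, Cpa1 and Pnlip, though the summed levels overlapped (2.94 to 20.8 CPM against 6.85 to 15.9 CPM). The part of length and of these markers in the Gst result was not tested beyond these values.

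**Figure D3:**
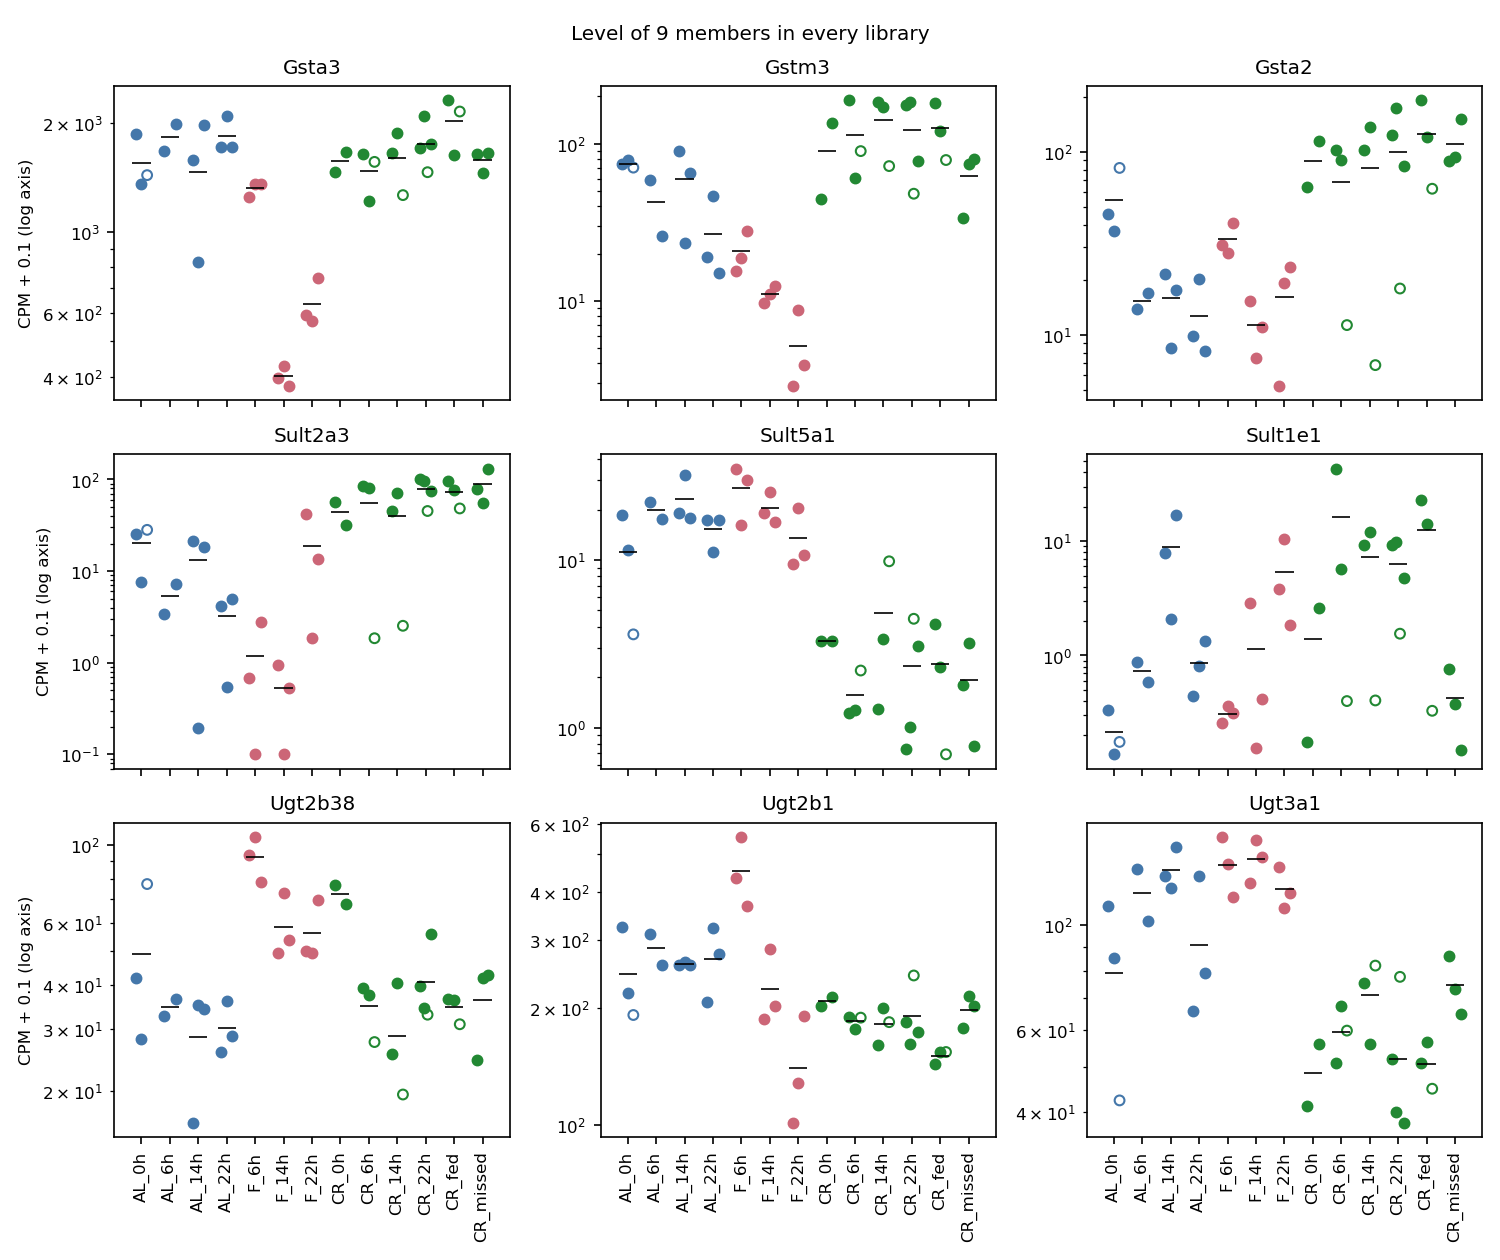
CPM + 0.1 (log axis) of 9 members in every library, by diet and hour (blue ad libitum, red fasted, green calorie restriction); black lines are group means and open circles the 5 libraries closest to a group on another diet. Gsta3 lies at 377 to 746 CPM in the fasted libraries at 14 and 22 h and at 829 CPM or more in every other library, and Sult5a1 is at most 9.73 CPM in any library under calorie restriction.

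Under calorie restriction, Gst genes were higher than in fasted livers and, at 22 h, some were higher than in ad libitum livers. Against fasted livers at 14 h, 24 of 52 members were called, against 17.1% of all genes: 19 higher, of which 14 were Gst genes, and 5 lower (9.1% and 7.97% of all genes). At 22 h, 21 were called, against 9.44% of all genes: 17 higher, of which 12 were Gst genes, and 4 lower (5.13% and 4.32% of all genes). Of the 20 Gst genes 16 had an unadjusted p under 0.05 at 14 h and 13 at 22 h, and all those called by edgeR were higher. The median Gst log2 fold change was 1.16 at 14 h and 1.37 at 22 h, against 0.03 and 0.01 over all genes. Without calorie restriction library 2 the count at 14 h was 15, and without fasted library 1 the count at 22 h was 13. With the length trend removed the counts were 17 at 14 h and 16 at 22 h, against 13.3% and 9.96% of all genes, and the Gst genes called higher were 8 and 9.

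Gstm3 rose against fasted livers at all 3 hours. Under calorie restriction it stood at 189, 60.3 and 89.7 CPM at 6 h, at 183, 171 and 72 CPM at 14 h and at 177, 185, 48 and 77.8 CPM at 22 h. Fasted livers stood at 15.4, 18.6 and 27.9 CPM at 6 h and lower still at 14 and 22 h, and no group pair overlapped. The log2 fold change was 2.46 at 6 h (edgeR adjusted p = 0.00781), 3.7 ± 0.61 at 14 h (adjusted p = 0.00013) and 4.59 ± 0.63 at 22 h (adjusted p = 4.65e-05). The call at 6 h was lost without calorie restriction library 1 (1.85, adjusted p = 0.0867) or fasted library 1 (2.28, adjusted p = 0.054). Gstm6 was higher at 14 h (1.93, adjusted p = 0.000213) and 22 h (2.12, adjusted p = 9.73e-05), and held without any 1 library. At 6 h Gstm7 was higher (0.75, edgeR adjusted p = 0.037) and Gsto1, which reduces dehydroascorbate, lower (-0.63, adjusted p = 0.0267). Gstm7 was lost without calorie restriction library 1 or any fasted library (adjusted p up to 0.19) and Gsto1 without any library but fasted library 2 (adjusted p up to 0.111).

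Gsta3 in calorie restriction stayed near its ad libitum level. It stood at 1651, 1872 and 1265 CPM at 14 h and at 1704, 2093, 1463 and 1745 CPM at 22 h, above all fasted libraries at these hours and overlapping the ad libitum ones. Against fasted livers the log2 fold change was 1.99 ± 0.23 at 14 h (edgeR adjusted p = 1.29e-06) and 1.46 at 22 h (adjusted p = 9.48e-05). Gstm1 stood at 2389, 3073 and 1475 CPM at 14 h, against 634, 697 and 718 CPM in fasted livers, and at 3176, 3578, 1018 and 1574 CPM at 22 h, against 409, 559 and 555 CPM. Calorie restriction library 3, which is among the 5 closest to another diet, was the lowest of its group for both genes at both hours. The Gstm1 fold change was 1.76 at 14 h (edgeR adjusted p = 0.000707) and 2.2 ± 0.33 at 22 h (adjusted p = 9.53e-05), and 1.99 and 2.43 without the 5 libraries closest to another diet. Leaving these libraries out widens diet differences by construction.

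Between calorie-restricted and ad libitum livers edgeR on all libraries called members at 22 h and none at 0, 6 or 14 h. At 22 h 9 of 52 members were called, against 4.88% of all genes: 7 higher and 2 lower (2.57% and 2.31% of all genes). The higher ones were the alpha-class Gsta1 and Gsta2, the mu-class Gstm1 and Gstm3, the pi-class Gstp1, and Sult2a3 and Sult2a5. Without ad libitum library 1 or 3 the count fell to 2, and without calorie restriction library 1 to 3. At 0, 6 and 14 h edgeR called 0 members, against 0.479%, 0% and 0.0218% of all genes, while 3, 15 and 13 members had an unadjusted p under 0.05 and DESeq2 called 0, 1 and 1. Without calorie restriction library 3 at 14 h the count there was 3.

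Gsta2 rose at 22 h in calorie restriction but not in every library. It stood at 9.74, 20 and 8.03 CPM in ad libitum livers and at 123, 174, 17.8 and 83.2 CPM under calorie restriction, where library 3 fell inside the ad libitum range. The log2 fold change was 2.98 ± 0.76 (edgeR adjusted p = 0.021), and the call was lost without ad libitum library 1 (2.86, adjusted p = 0.104) or 3 (2.78, adjusted p = 0.0984) or calorie restriction library 1 (2.86, adjusted p = 0.0558) or 2 (2.57, adjusted p = 0.0543). The neighbouring Gsta1 stood at 0, 0.932 and 0.178 CPM against 14.6, 24.7, 1.29 and 9.49 CPM, all higher (5.07 ± 1.26, edgeR adjusted p = 0.0186), and was lost without ad libitum library 1 (4.51, adjusted p = 0.1) or 3 (4.78, adjusted p = 0.0871). Of the 100-base stretches of Gsta1 transcripts 81.8% occur in other coding genes, and 24.8% of those of Gsta2, so reads may be divided between them. Against fasted livers Gsta1 and Gsta2 were higher at 14 h (4.53 and 2.87, both with overlap) and 22 h (6.13 and 2.63, Gsta2 with overlap). At 14 h Gsta1 was lost without calorie restriction library 2 or fasted library 2 or 3 (adjusted p up to 0.131) and Gsta2 without calorie restriction library 2 (adjusted p = 0.0606). At 22 h Gsta1 held, while Gsta2 was lost without calorie restriction library 2 or fasted library 1 or 2 (adjusted p up to 0.142).

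Gstm3, Gstm1 and Gstp1 were also higher than in ad libitum livers at 22 h. Gstm3 rose from 26.6 to 122 CPM with no overlap (2.2 ± 0.55, edgeR adjusted p = 0.0189), while Gstm1 (from 999 to 2336 CPM, 1.23 ± 0.32, adjusted p = 0.0248) and Gstp1 (from 202 to 445 CPM, 1.14 ± 0.34, adjusted p = 0.0485) overlapped. Each call was lost in some fits that left out 1 library, Gstm3 in 3 of 7 (ad libitum 1 or 3 or calorie restriction 1, adjusted p up to 0.103), Gstm1 in 4 of 7 (those or calorie restriction 2, up to 0.109) and Gstp1 in 6 of 7 (any but calorie restriction 3, up to 0.171).

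Leaving out the 5 libraries closest to another diet gave more calls between calorie restriction and ad libitum livers. These libraries were picked for their likeness to another diet, so leaving them out widens diet differences by construction. At 22 h 16 members were then called (12 higher, 4 lower), against 15.3% of all genes (7.06% higher, 8.25% lower), at 14 h 7 (4.79%), at 6 h 5 (0.789%) and at 0 h 2 (3.09%). Gsta2 was then higher at 6 h (2.66 ± 0.52), 14 h (2.93 ± 0.46) and 22 h (3.33 ± 0.44), and Gsta4 (1.19), Ugt1a1 (0.65) and Ugt1a9 (1.52) were higher at 22 h. Counts against fasted livers without them were 15 at 6 h, 23 at 14 h and 21 at 22 h, against 9.15%, 14.6% and 14.8% of all genes.

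**Figure D4:**
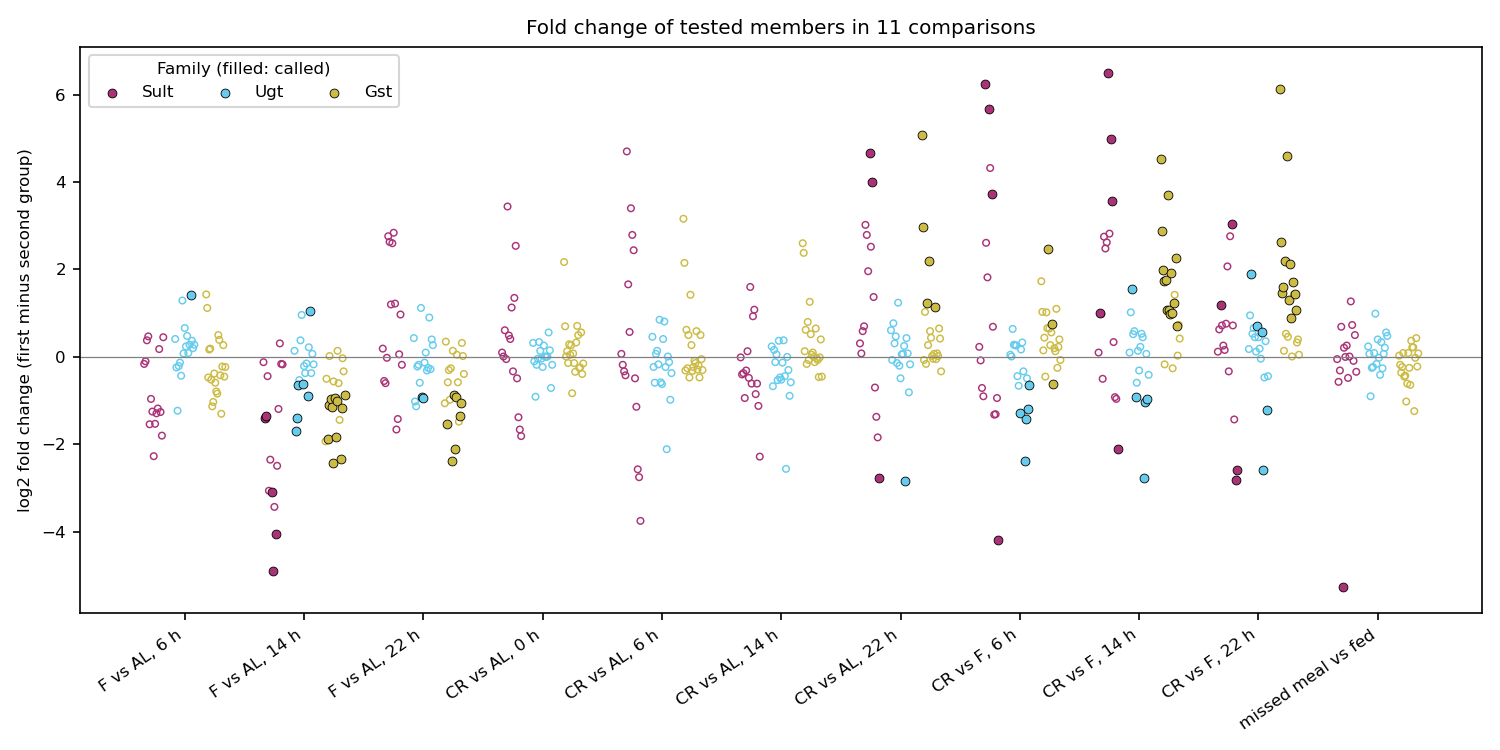
Log2 fold change of each tested member (points, by family) in the 11 comparisons of 2 groups; filled points have an adjusted p under 0.05. Gst points lie mostly below 0 for fasted livers compared with ad libitum livers at 14 h (median -0.98) and above 0 in calorie-restricted against fasted livers at 14 h (1.16) and 22 h (1.37).

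The hydroxysteroid sulfotransferases of the Sult2a cluster on chromosome 7, which sulfate steroids such as DHEA and bile acids, had large fold changes and a wide spread between libraries. Sult2a3 stood at 21, 0.0948 and 18.1 CPM in ad libitum livers at 14 h and at 0.854, 0 and 0.427 CPM in fasted livers. Under calorie restriction it stood at 44.7, 71.4 and 2.43 CPM at 14 h and at 102, 96.5, 45.2 and 73.9 CPM at 22 h, against 4.07, 0.444 and 4.82 CPM in ad libitum livers at 22 h. All 4 calorie-restricted livers at 22 h lay above all ad libitum livers, while at 14 h ad libitum library 2 lay among the fasted ones. Fasted livers at 22 h stood at 41.5, 1.77 and 13.4 CPM, overlapping the ad libitum ones with a higher mean (2.6 ± 1.17, edgeR adjusted p = 0.145).

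For Sult2a3 the log2 fold change from ad libitum to fasted livers at 14 h was -4.9 ± 1.48 (edgeR adjusted p = 0.0155), and it was lost without ad libitum library 1 (-4.36, adjusted p = 0.0534), fasted library 2 (-4.33, adjusted p = 0.062) or fasted library 3 (-4.9, adjusted p = 0.0565). In calorie-restricted against fasted livers at 14 h it was 6.5 ± 1.51 (edgeR adjusted p = 0.00335) and held without any 1 library. At 6 h it was 5.66 with overlap (adjusted p = 0.00981), lost without fasted library 1 (5.37, adjusted p = 0.0605) or 2 (5.08, adjusted p = 0.063). Against ad libitum livers at 22 h it was 4.67 ± 1.23 (edgeR adjusted p = 0.0254), lost in 4 of 7 fits (without any ad libitum library or calorie restriction library 1, adjusted p up to 0.0975). None of its 100-base stretches occur in another coding gene.

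Sult2a5 and Sult2a2 were also lower in fasted livers at 14 h, but not at 22 h. Sult2a5 fell from 18.9 to 1.12 CPM in fasted livers at 14 h with overlap (-4.06 ± 1.12, edgeR adjusted p = 0.00881), lost without ad libitum library 3 (-3.26, adjusted p = 0.057). It rose from 4.53 to 71.9 CPM in calorie-restricted against ad libitum livers at 22 h (3.99 ± 1.0, adjusted p = 0.0197), lost without any ad libitum library (adjusted p up to 0.0861) or calorie restriction library 1 (0.0503), and stood at 36 against 1.12 CPM in calorie-restricted against fasted livers at 14 h (4.99 ± 1.14, adjusted p = 0.00303). At 6 h Sult2a5 stood at 40 CPM in calorie-restricted against 3.03 CPM in fasted livers, with overlap (3.72, edgeR adjusted p = 0.0247). It was lost there in 4 of 6 fits without 1 library (adjusted p up to 0.113). Sult2a2 fell from 382 to 44.6 CPM in fasted livers at 14 h with overlap (-3.1 ± 1.05, edgeR adjusted p = 0.0298). That call was lost in 4 of 6 fits (without ad libitum library 1 or 3 or fasted library 2 or 3, adjusted p up to 0.124) and with the length trend removed. At 22 h fasted livers held 378, 274 and 314 CPM of Sult2a2 against 182, 37.9 and 199 CPM in ad libitum livers (1.2 ± 0.98, adjusted p = 0.453), all higher, and 13.9, 5.47 and 12.3 CPM of Sult2a5 against 6.23, 1.38 and 5.98 CPM (1.22 ± 0.96, adjusted p = 0.431), with overlap. Sult2a7 was higher under calorie restriction than in fasted livers at 14 h (3.57, edgeR adjusted p = 0.013), lost without calorie restriction library 3 (2.13, adjusted p = 0.148) or fasted library 3 (3.43, adjusted p = 0.0564). At 22 h it was higher with overlap (3.03, adjusted p = 0.036), lost in 4 of 7 such fits (calorie restriction 3 or 4 or fasted 1 or 2, up to 0.159).

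Sult2a1 was not called in any comparison. It stood at 389, 33.8 and 423 CPM in ad libitum and 130, 1.21 and 34.9 CPM in fasted livers at 14 h, and at 134, 10.5 and 157 CPM against 842, 536 and 491 CPM at 22 h. Its log2 fold change was -2.35 ± 1.31 at 14 h (edgeR adjusted p = 0.199) and 2.63 ± 1.33 at 22 h (adjusted p = 0.198). Fasted library 2 at 6 h held 0.156 CPM of Sult2a1, 0.313 of Sult2a2, 0 of Sult2a3 and 0 of Sult2a5, and fasted library 2 at 14 h held 1.21, 1.64, 0 and 0 CPM, the lowest values of these genes in any library. Sult2a1, Sult2a2 and Sult2a5 share 11.4%, 34.6% and 16.6% of their 100-base stretches with other genes.

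Sult2a8, which sulfates bile acids, split the calorie-restricted libraries. It stood at 209, 189 and 1205 CPM at 14 h and at 135, 102, 1118 and 852 CPM at 22 h, against 1025, 556 and 1301 CPM and 830, 899 and 956 CPM in ad libitum livers. At both hours libraries 1 and 2 lay below all ad libitum libraries and library 3, which is closest to another diet, lay within or above them, as did library 4 at 22 h. No comparison called it: calorie restriction against ad libitum gave -0.85 ± 0.66 at 14 h (edgeR adjusted p = 0.708) and -0.7 ± 0.61 at 22 h (adjusted p = 0.554). Without the 5 libraries closest to another diet it was called at 14 h (-2.26 ± 0.61, adjusted p = 0.0312). Leaving these libraries out, library 3 at 14 h among them, widens diet differences by construction.

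Sult5a1, on chromosome 8 (123140192 to 123158315), was lower in calorie-restricted than in fasted livers at 6, 14 and 22 h. It stood at 1.12, 1.18 and 2.09 CPM under calorie restriction and 35, 16.1 and 29.8 CPM after fasting at 6 h. At 22 h it stood at 0.643, 0.905, 4.36 and 2.98 CPM under calorie restriction, 17.2, 11.1 and 17.3 CPM in ad libitum and 9.31, 20.3 and 10.6 CPM in fasted livers. Every calorie-restricted library at 6 and 22 h lay below every ad libitum and fasted library of that hour. The log2 fold change against fasted livers was -4.19 ± 0.72 at 6 h (edgeR adjusted p = 0.000333), -2.1 at 14 h (adjusted p = 0.0216) and -2.58 at 22 h (adjusted p = 0.00594). The call at 14 h was lost without calorie restriction library 1 (-1.65, adjusted p = 0.0922) or 2 (-1.9, adjusted p = 0.0876) or fasted library 2 (-1.92, adjusted p = 0.0592).

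Against ad libitum livers Sult5a1 was called at 22 h (-2.76 ± 0.6, edgeR adjusted p = 0.00859) and held without any 1 library. At 0, 6 and 14 h the fold changes were -1.81 (adjusted p = 0.34), -3.75 (adjusted p = 0.0779) and -2.28 (adjusted p = 0.198). Without the 5 libraries closest to another diet all 4 hours were called, at -2.23 ± 0.57, -4.1 ± 0.63, -3.35 ± 0.57 and -3.39 ± 0.5. Leaving these libraries out widens diet differences by construction. At 0 h this drops ad libitum library 3, at 3.5 CPM, close to the calorie-restricted libraries at 3.17 and 3.17 CPM. Between fasted and ad libitum livers Sult5a1 was not called, with fold changes from -0.18 to 0.45. At ZT18 it stood at 4.06, 2.19 and 0.592 CPM in fed and 1.7, 3.08 and 0.681 CPM in missed-meal livers, which overlap.

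Sult1e1, which inactivates estrogens, was lower after the missed meal than in fed livers under calorie restriction. It stood at 23, 13.9 and 0.228 CPM in fed and 0.656, 0.276 and 0.0486 CPM in missed-meal livers, so fed library 3, closest to another diet, lay among the missed-meal ones. The log2 fold change was -5.26 ± 1.53 (edgeR adjusted p = 0.021), and Sult1e1 was the 1 member called there, against 12.5% of all genes called and 6.13% lower, with 8 members at an unadjusted p under 0.05. In this comparison all 3 pairs of libraries with the same number had weakly correlated deviations (0.144 to 0.2), a pattern picked out from the data. Pairs with different numbers were not compared, so this does not show that the numbers pair the libraries. With a replicate block, 1 term shared by all groups, 3 members were called, against 15.2% of all genes: Sult1e1 (-4.95 ± 1.46, edgeR adjusted p = 0.0212), Gstm7 (-0.64 ± 0.22, adjusted p = 0.0426) and Ugt3a2 (0.48 ± 0.17, adjusted p = 0.0489). Without the block the Sult1e1 call was lost without fed library 1 (-4.45, adjusted p = 0.0831) or missed-meal library 2 (-5.16, adjusted p = 0.078) or 3 (-4.75, adjusted p = 0.109), and 0 members remained called without fed library 1 or missed-meal library 3, 2 were called without fed library 2 and 3 without missed-meal library 1. Without the 5 libraries closest to another diet Sult1e1 gave -5.85 ± 1.12 (adjusted p = 0.00147) and Gstm7 was also called (-0.73), against 12% of all genes. That fit leaves out fed library 3, the one among the missed-meal libraries, so a wider Sult1e1 difference follows by construction.

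Sult1e1 also varied widely at the other hours. At 6 h it stood at 42.9, 5.64 and 0.299 CPM under calorie restriction and 0.159, 0.261 and 0.211 CPM after fasting (6.24 ± 1.62, edgeR adjusted p = 0.0166). All calorie-restricted livers were higher, but library 3 only just, and without library 1 the value was 3.79 (adjusted p = 0.212); it was also lost without any fasted library (adjusted p 0.0702 to 0.0792). Sult1b1, which sulfates thyroid hormones, fell in fasted livers at 14 h (-1.4 ± 0.36, edgeR adjusted p = 0.00512), lost without ad libitum library 3 (-0.85, adjusted p = 0.105). Sult1c2 fell there too (-1.35, adjusted p = 0.0186), lost without ad libitum library 3 (adjusted p = 0.143) or fasted library 3 (adjusted p = 0.0876). Calorie-restricted livers had more Sult1b1 than fasted livers at 14 h (1.0, adjusted p = 0.0485), lost without any 1 library, and more Sult1c2 at 22 h (1.19, adjusted p = 0.0482), lost in 5 of 7 such fits (calorie restriction 3 or 4 or any fasted library left out, adjusted p up to 0.164). Sult1a1, the main phenol sulfotransferase, was not called in any of the 11 comparisons, with fold changes from -0.16 to 0.31 and adjusted p from 0.45 to 0.99.

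The N-sulfating Sult3a genes were called once. Sult3a2 was lower under calorie restriction than in fasted livers at 22 h (-2.81, edgeR adjusted p = 0.0298), lost in 4 of 7 fits (calorie restriction 1 or 2 or fasted 1 or 3 left out, adjusted p up to 0.169). Sult3a1 stood at 25.6, 16.2, 75.5 and 92.2 CPM there against 102, 69.4 and 252 CPM (-1.43 ± 0.65, adjusted p = 0.161).

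Several Ugt2b genes of the chromosome 5 cluster differed between fasted livers and the other diets. Between calorie-restricted and fasted livers at 6 h, 12 of 52 members were called, against 6.8% of all genes: 5 higher and 7 lower (3.39% and 3.41% of all genes), of which 5 of the 7 were Ugt genes. Without calorie restriction library 1 the count was 4, without fasted library 1 it was 5 and without fasted library 2 it was 7. Ugt2b1, a steroid and xenobiotic glucuronosyltransferase, stood at 190, 177 and 189 CPM under calorie restriction, 435, 554 and 367 CPM after fasting and 312 and 259 CPM in ad libitum livers. All fasted livers at 6 h lay above both other groups, and the fold change of calorie-restricted against fasted livers was -1.29 ± 0.22 (edgeR adjusted p = 0.000376), which held without any 1 library.

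At 22 h Ugt2b1 was lower in fasted than in ad libitum livers, a comparison that had not called it at 6 h. Fasted livers at 22 h stood at 101, 128 and 191 CPM and ad libitum livers at 207, 323 and 276 CPM, with no overlap (-0.94 ± 0.22, edgeR adjusted p = 0.00587). That call was lost without fasted library 1 (-0.75, adjusted p = 0.0633), and the test of whether this difference changed over time did not call Ugt2b1. Calorie-restricted livers at 22 h, at 184, 162, 243 and 174 CPM, overlapped the fasted ones, and Ugt2b1 was not called between them. Within the fasted groups it changed over time (adjusted p = 0.000146), with means of 452, 225 and 140 CPM at 6, 14 and 22 h. Ugt2a3 was also lower at 22 h, from 282 CPM in ad libitum to 151 CPM in fasted livers (-0.91 ± 0.21, edgeR adjusted p = 0.00636), lost without fasted library 1 (-0.71, adjusted p = 0.0687) or 2 (-0.77, adjusted p = 0.0521). Unlike Ugt2b1, it was called lower at 14 h too (-0.61, adjusted p = 0.0369), lost in 5 of 6 fits without 1 library. Calorie-restricted livers held more Ugt2a3 than fasted ones at 22 h, with overlap (0.7, adjusted p = 0.0244), lost in 3 of 7 such fits.

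Ugt2b38 was higher in fasted than in ad libitum livers at 6 and 14 h. It stood at 93.6, 105 and 78.5 CPM against 32.7 and 36.4 CPM in ad libitum livers at 6 h (1.42 ± 0.36, edgeR adjusted p = 0.0267), and at 49.1, 72.7 and 53.6 CPM against 16.2, 35.1 and 34.2 CPM at 14 h (1.04 ± 0.31, adjusted p = 0.0144). The fasted libraries lay above all ad libitum ones at both hours. It was the 1 member called at 6 h, and that call was lost without either ad libitum library (adjusted p = 0.295 and 0.154) or fasted library 1 (0.071) or 2 (0.101), leaving 0 members called. At 14 h it was lost without ad libitum library 1 (0.76, adjusted p = 0.108) or fasted library 2 (0.85, adjusted p = 0.0705). Calorie-restricted livers, at 39.3, 37.4 and 27.5 CPM, lay below the fasted ones at 6 h (-1.41 ± 0.31, adjusted p = 0.00448), which held without any 1 library. At 14 h the call (-1.04, edgeR adjusted p = 0.0193) was lost in 3 of 6 such fits. At 22 h fasted livers stood at 50, 49.1 and 69.6 CPM and were not called against ad libitum livers. Livers at 0 h reached similar levels, at 77 and 67.7 CPM under calorie restriction and 41.9, 28 and 77.3 CPM in ad libitum livers. These values are of Ugt2b38. Of its 100-base stretches 24.2% occur in other genes.

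Ugt2b36, one of the abundant Ugt genes, fell from 663 to 359 CPM in fasted livers at 14 h (-0.89 ± 0.19, edgeR adjusted p = 0.00135), and held without any 1 library. It was higher in calorie-restricted than in fasted livers at 22 h (0.56, adjusted p = 0.0454), lost in 6 of 7 fits without 1 library (all but fasted 3, adjusted p up to 0.235). Ugt2b5 stood at 437 to 778 CPM over all libraries and was not called in any comparison. Ugt2b37 was lower under calorie restriction than in fasted livers at 6 h (-2.39), 14 h (-2.78) and 22 h (-2.58), and than in ad libitum livers at 22 h (-2.83, adjusted p = 0.00463). Its level was low: at 22 h it stood at 0.558, 0.658, 0.66 and 0.827 CPM under calorie restriction against 5.42, 1.6 and 7.4 CPM in ad libitum livers, with no overlap. At 6 h the Ugt2b37 call was lost without calorie restriction library 1 (-2.06, adjusted p = 0.0912).

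Ugt3a1, which uses UDP-N-acetylglucosamine in place of the glucuronic acid donor, was lower under calorie restriction than in fasted livers at each hour. It stood at 50.9, 67.4 and 59.6 CPM against 154, 135 and 115 CPM at 6 h, and at 51.8, 40, 77.6 and 37.9 CPM against 133, 109 and 117 CPM at 22 h, with no overlap. The fold changes were -1.18 ± 0.27 at 6 h (edgeR adjusted p = 0.00635), -0.96 at 14 h (adjusted p = 0.0133) and -1.21 at 22 h (adjusted p = 0.00205). The first was lost without calorie restriction library 1 (adjusted p = 0.0503) and the second without calorie restriction library 2 (adjusted p = 0.0741). Against ad libitum livers at 22 h the value was -0.81 ± 0.25 (adjusted p = 0.0538). Its neighbour Ugt3a2 was called lower at 6 h only against fasted livers (-0.65, adjusted p = 0.0276), lost in 4 of 6 fits (calorie restriction 1 or 3 or fasted 1 or 2 left out, adjusted p up to 0.127).

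The Ugt1a genes share their last exons, and 52.3% to 95.7% of the 100-base stretches of a Ugt1a transcript occur in other genes, so the division of reads among them is uncertain. Ugt1a1 was not called in any comparison on all libraries, with fold changes from 0.05 to 0.61. Ugt1a5 stood at 282, 180 and 194 CPM in ad libitum and 108, 57.1 and 83.3 CPM in fasted livers at 14 h with no overlap (-1.4 ± 0.4, edgeR adjusted p = 0.0114), lost without ad libitum library 1 (adjusted p = 0.0613) or fasted library 2 (adjusted p = 0.0611). It rose to 322, 168 and 241 CPM under calorie restriction at 14 h (1.56 against fasted livers, adjusted p = 0.00766) and was also higher at 22 h (1.9, adjusted p = 0.00205), and both held without any 1 library. Ugt1a10 (-1.69) and Ugt1a6a (-0.64) were called lower in fasted livers at 14 h. Ugt1a10 was lost without ad libitum library 1 (adjusted p = 0.0744) or fasted library 3 (adjusted p = 0.115), and Ugt1a6a without any 1 of the 6 libraries.

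Change with the hour was tested within each diet. In ad libitum livers edgeR called 0 members over 0, 6, 14 and 22 h, against 0.276% of all genes, 10 had an unadjusted p under 0.05 and DESeq2 called 1. Ad libitum libraries 2 and 3 at 0 h and library 2 at 22 h had clock genes closest to another hour. The result therefore does not show that members stay level over the hours. Some of these libraries also enter the tests of changing differences below. Under calorie restriction 7 members were called, against 20.6% of all genes: Gstm4, Gstm7, Gstt2, Sult1c2, Sult1d1, Ugt2b37 and Ugt2b38. Sult1d1, which sulfates catecholamines, stood at 175, 154 and 162 CPM at 14 h and 365, 383, 317 and 572 CPM at 22 h (adjusted p = 0.00074 over the 4 hours). Without calorie restriction library 1 at 0 h the count was 4.

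Over 6, 14 and 22 h of the fasted groups 6 members were called, against 2.86% of all genes: Gsta3, Gstm6, Gstt1, Sult2a3, Ugt2a3 and Ugt2b1. Gsta3 fell from a mean of 1324 CPM at 6 h to 401 CPM at 14 h and stood at 635 CPM at 22 h (edgeR adjusted p = 0.000146). Without fasted library 2 at 6 h or library 1 at 22 h the count was 3. The test of whether the fasted against ad libitum difference changed over time called 0 members, against 0.0653% of all genes (14 at an unadjusted p under 0.05, DESeq2 2), and 1 without ad libitum library 2 at 14 h or fasted library 3 at 22 h. The same test for calorie restriction against ad libitum called 0 members, against 0.442% of all genes, with 3 at an unadjusted p under 0.05 and 0 by DESeq2.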

How the data were processed

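Polyadenylated RNA from female mouse liver was made into non-directional libraries and sequenced as 150 bp read pairs, per the labels' protocols. Per the labels, Bowtie (up to 2 mismatches) placed the reads on Ensembl protein-coding genes of GRCm38, and RSEM 1.2.3 gave the expected counts the authors deposited. A further deposited table is a signal: TPM that the authors rescaled with EBSeq to remove possible batch effects; no batch is named in the labels, so none entered a fit. Its column sums ran from 817166.1 to 1319582.3.

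Expected counts were rounded and fitted in edgeR 4.0.16 (R 4.3.3) with 1 term per group over 38 libraries, TMM scaling, filterByExpr and the quasi-likelihood F test, with Benjamini-Hochberg adjustment over 13786 genes and a threshold of 0.05. The common dispersion was 0.0785. A standard error is the size of the log2 fold change over the root of F. Transcript identifiers supplied the symbols, of which 26 differ from the gene column. DESeq2 1.42.0 and limma 3.58.1 (on the signal) were alternatives. Counts carry no molecular identifiers, so depth covers counting error only.

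The members and lists were chosen with earlier results of these data known. Members were named, per comparison and family, if called and at 5 CPM or more in 1 of the groups, up to 6 in each direction by fold change. Some called values beyond this rule are printed as well, such as Gstm1, Gsta4 and Gstz1 at 14 h and Ugt2b37 at 22 h. Not every value the rule named is printed. Library values are given for the 5 members of a family with the smallest p across groups and for a set of anchor genes; Sult2a1, Sult2a7 and Gsta1 were added after their values were seen. The method was tested on simulated data for fasted against ad libitum at 14 h (13584 genes). There edgeR recovered 54% of changes of 1 and 95% of changes of 2 on the log2 scale, with 2.61% of its calls false. These percentages describe the simulated data only. The share of false calls among those made on the liver libraries was not tested. Of 30 pairs of libraries with the same replicate number, 8 had a correlation of deviations over 0.1 (range -0.196 to 0.2). All 3 pairs of the missed-meal comparison did (0.144 to 0.2), and in no other comparison did every pair. The replicate block is therefore reported for it, a choice made from the data and not from the labels. Pairs with different numbers were not compared. Alternatives were other scaling, no filter, DESeq2, limma on the signal, only the compared groups, a replicate block and leaving out each library; leaving out libraries closest to another diet or hour, and the length trend, were added after seeing the data.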

Additional observations from a re-analysis of the deposited data

Results flagged for a closer look

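The difference between calorie-restricted and fasted livers changed over 6, 14 and 22 h for 4 of 52 members by an edgeR test of the difference itself, added after seeing the data. Over all genes 390 of 13786 were called by this test, and 20 members had an unadjusted p under 0.05. Gsta3 had log2 fold changes of 0.15, 1.99 and 1.46 at 6, 14 and 22 h (adjusted p = 0.00348). Gstt1 had -0.25, 0.71 and 1.07 (adjusted p = 0.0113). Ugt2b1 had -1.29, -0.31 and 0.45 (adjusted p = 0.005), and Ugt2a3 had -0.66, 0.14 and 0.7 (adjusted p = 0.0224).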

How the results depend on the processing

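The members named by the rule gave 76 fold changes and 1226 values under alternatives, of which 985 kept direction and call, 241 lost the call and 0 changed sign. Of the 76, 29 kept their call in every fit that left out 1 library and 27 under every alternative run. Called values printed beyond the rule are not among the 76. Settings on the libraries that stand apart and on length were added after seeing the data.

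With 1 library left out, the number of members called ranged from 0 to 1 between fasted and ad libitum livers at 6 h, 12 to 22 at 14 h and 4 to 10 at 22 h; from 0 to 0 for calorie restriction against ad libitum at 0 h and at 6 h, 0 to 3 at 14 h and 2 to 13 at 22 h; and from 4 to 11, 15 to 20 and 13 to 20 for calorie restriction against fasted at 6, 14 and 22 h. It ranged from 0 to 3 for the missed meal, 0 to 0, 4 to 9 and 3 to 6 for the time courses of ad libitum, calorie restriction and fasted livers, 0 to 1 and 0 to 0 for the change of the fasting and calorie restriction differences over time, and 34 to 40 for any difference among groups.

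Fitting only the compared libraries gave 6 for fasted against ad libitum at 6 h (1 in the fit of all libraries), 1, 2 and 3 for calorie restriction against ad libitum at 0, 6 and 22 h (0, 0 and 9), 13 for calorie restriction against fasted at 22 h (21), 4 for the missed meal (1), and 1 and 2 for the ad libitum and calorie restriction time courses (0 and 7). DESeq2 gave 2 for fasted against ad libitum at 6 h, 1 for calorie restriction against ad libitum at 6 h and at 14 h, 3 for the missed meal, 1 for the ad libitum time course and 2 for the change of the fasting difference over time. No filter on low counts gave 1 for calorie restriction against ad libitum at 6 h and 2 for the missed meal, where size factors of DESeq2 in edgeR and limma without a filter each gave 2. Removing the length trend gave 14 for fasted against ad libitum at 14 h (22) and 3 for the missed meal (1). Without the 5 libraries closest to another diet the counts were 2, 5, 7 and 16 for calorie restriction against ad libitum at 0, 6, 14 and 22 h, 2 for the missed meal and 2 for the ad libitum time course. Leaving out the 3 libraries with clock genes closest to another hour gave 8 for fasted against ad libitum at 22 h, against 9% of all genes. For calorie restriction against ad libitum that fit gave 0 at 0 h and 6 at 22 h, against 0.323% and 2.5% of all genes. The cause of these shifts was not tested. Fits of fewer libraries hold fewer residual degrees of freedom, and the part of that was not tested either.

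With a replicate block the counts were 1 for calorie restriction against ad libitum at 0 h (0 without it) and 3 for the missed meal (1 without it); no other count moved by over 1.5 times. Libraries with the same number had weakly correlated deviations in every pair of the missed-meal comparison and of no other. Whether the numbers pair libraries is not labelled, and the block was 1 term shared by all groups.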

Other observations

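Genes that supply or follow conjugation were set out in lists beside the families, chosen with earlier results known. Between fasted and ad libitum livers at 14 h, 4 of 14 tested genes of cofactor supply were lower and 1 was higher by edgeR, against 24.5% of all genes called. Ugp2, which makes UDP-glucose, stood at 225 against 437 CPM (log2 fold change -0.96 ± 0.18, edgeR adjusted p = 0.000343). Papss1, a PAPS synthase, gave -0.93, Slc35b2, a PAPS transporter, -0.94 and Gclm, a subunit of the enzyme that limits glutathione synthesis, -0.53. The list median was -0.45, against -0.04 over all genes. Calorie-restricted livers at 14 h had 5 of these 14 genes higher than fasted livers, against 9.1% of all genes, among them Gclc (1.08 ± 0.28, adjusted p = 0.00732), Gclm (0.66) and Ugp2 (0.68), and 1 lower, against 7.97%.

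Of 19 other conjugating and related enzymes 8 were lower and 1 higher in fasted livers at 14 h, against 12.7% and 11.8% of all genes. The microsomal Mgst3 stood at 7.31 against 39.3 CPM (-2.42 ± 0.3, edgeR adjusted p = 4.21e-06) and the indolethylamine methyltransferase Inmt at 157 against 758 CPM (-2.27 ± 0.46, adjusted p = 0.000794). The higher gene was the epoxide hydrolase Ephx2 (1.31 ± 0.23, adjusted p = 0.00016). These 3 genes were also called in the same direction at 22 h, Mgst3 at -1.53, Inmt at -1.55 and Ephx2 at 1.04. Calorie-restricted against fasted livers gave the opposite sign for Mgst3, Inmt and Ephx2 at 14 h (2.46, 1.92 and -0.94) and 22 h (2.16, 1.91 and -0.85), in comparisons that share the fasted libraries.

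Of 12 genes of deconjugation and export 4 were higher and 1 lower in fasted livers at 14 h, against 11.8% and 12.7% of all genes, with a median of 0.61. The conjugate exporter Abcc3 stood at 443 against 192 CPM (1.2 ± 0.25, edgeR adjusted p = 0.000962) and the hydrolase Gusb gave 0.81 (adjusted p = 0.0424). At 22 h, when 11.5% of all genes were called, 3 were higher, Abcc2 (1.02), Abcc3 (0.93) and Abcc4 (1.73), and Abcc2 was also higher in calorie-restricted than in ad libitum livers (1.0 ± 0.22, adjusted p = 0.00923). Among 20 regulators 5 were called in fasted livers at 14 h, a share close to the 24.5% of all genes, with Ppara (1.38) and Hnf4a (0.9) higher and Foxa2 (-0.82) and Nfe2l2, the gene of NRF2 (-0.67), among the 3 lower. Of 15 targets of CAR, PXR, AHR or NRF2 outside the families, 3 were higher, against 11.8% of all genes (Cyp2b10 2.52, Por 1.4, Srxn1 0.84) and 4 lower, against 12.7% (Cyp2a5 -1.75, Cyp1a1 -2.19, Cyp1a2 -1.54, Osgin1 -2.47).

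After the missed meal 12.5% of all genes were called, and so were 4 of 15 targets (3 higher, 1 lower), 4 of 20 regulators (2 higher, 2 lower) and 4 of 14 cofactor genes (1 higher, 3 lower). Cyp2b10 (103 against 14.7 CPM, 2.8 ± 0.65, edgeR adjusted p = 0.00517) and Cyp3a11 (6129 against 2485 CPM, 1.3 ± 0.34, adjusted p = 0.011), targets of CAR and PXR, and Nr1i2, the gene of PXR (0.82, adjusted p = 0.0209), were higher than in fed livers under calorie restriction, while Papss1 was lower (-1.39 ± 0.34, adjusted p = 0.00686). The other called targets were Tiparp and Srxn1, which include the 1 lower target, and the other called regulators were Ppara, Foxa2 and Esr1. Cyp2c55, Cyp2a5, Ces2a, Por and Alas1, on the same target list, were not called. In the same comparison 3 of 7 endothelial markers were higher, against 12.5% of all genes called in either direction, at 195 to 219 CPM in sum against 114 to 137 CPM. Their part in these values was not tested.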
